A study of Mus musculus with 13 samples.

Results

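Epididymal fat and prostate tumours of TRAMP mice were compared in the libraries labelled wild type, 3 of fat and 4 of tumour, which are 7 of the 13 libraries of the series. They were chosen by their labels alone, and genes were included when their symbol stood once in the fat table and once in the tumour table, which held for 22615 symbols. The mice were C57BL/6, carried the TRAMP transgene, were 30 to 35 weeks old and ate a regular diet. Their p62 alleles were floxed on both chromosomes (p62f/f) and, as the wild-type arm, not deleted in adipocytes. TRAMP places the SV40 T antigens under the probasin promoter, which is active in androgen-driven prostate epithelium. The other arm, by its labels, lacks p62 in adipocytes; p62 is a selective autophagy receptor and a scaffold of signalling, and its gene is Sqstm1. Nothing in the labels ties a library to a mouse, so the spread given below is that between libraries and may be technical.

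The white adipocyte stores triglyceride in 1 droplet coated by perilipins, takes up fatty acids that lipoprotein lipase frees from circulating lipoproteins, makes others from glucose, and secretes adipokines such as adiponectin and leptin. PPARγ and C/EBPα hold this programme in place. The luminal cell of the prostate secretes fluid proteins under the control of androgens, with the factors FOXA1 and HOXB13. The large T antigen binds p53, it binds RB, which otherwise holds back the E2F factors, and it binds the RB relatives p107 and p130, which belong to the repressive DREAM complex. Many E2F target genes serve DNA replication, and the genes that DREAM holds back serve both DNA replication and mitosis.

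The headers of the deposited tables name no unit. As far as the values show, fat was deposited as FPKM, reads per kilobase of gene and per 1000000 reads, and tumour as read counts, so no level can be set side by side without further steps. Tumour counts were divided by the length of the union of each gene's exons in GENCODE M21, and every library was then scaled to a sum of 1000000 over 19826 protein-coding genes of at least 300 bases, which gives TPM (transcripts per 1000000). The tables had been normalized separately and may have been counted differently, so every level set across them below is a description, and no test was run between the tissues. With 3 against 4 libraries a two-sided exact permutation test could in any case not go below p = 0.0571. A gene was called higher in a tissue when every library of that tissue lay above every library of the other and the means of log2(TPM + 1) differed by at least 2, a factor of 4 for a gene well above 1 TPM. The tumour libraries held 17810397 to 23587516 counts. The depth of the fat libraries is unknown, and a gene listed at 0 there is given as listed at 0, with no fold, because 5 of 91 ribosomal protein genes were also listed at 0 in a fat library.

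Sqstm1 went against the label in 1 library of each tissue. Its deposited value was 73.6, 1.77 and 84.3 FPKM in the 3 fat libraries, and 3243, 135, 2358 and 3165 counts in the 4 tumours. The libraries numbered 2 in both tissues were thus far below the others of their group, although both are labelled wild type. The counts over all genes are given with and without them, as are those of several lists. Markers of the tissues followed the labels. Adipoq (GRCm38 chromosome 16, 23146536 to 23158028), the gene of adiponectin, stood at 7987, 5664 and 8641 TPM in fat and at 44, 84.1, 56 and 115 TPM in tumour. Plin1 (chromosome 7, 79720218 to 79732903), the droplet coat perilipin 1, stood at 1650.2, 749 and 1328 TPM in fat and at 5.68, 11.8, 2.88 and 12.2 TPM in tumour. For both genes the lowest fat library lay far above the highest tumour, while the tumours still held a low level of each. Krt8 (chromosome 15, 101996698 to 102004482), a keratin of simple epithelia, stood at 15.2, 1.08 and 72.4 TPM in fat and at 404, 1059.9, 596 and 1126 TPM in tumour. Mki67 (chromosome 7, 135689784 to 135716361), a nuclear protein of dividing cells, stood at 25.5, 49 and 7.32 TPM in fat and at 455, 146, 60.2 and 128 TPM in tumour. The groups did not overlap for either gene, and fat 3 was the fat library with the most Krt8 and the least Mki67.

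Several libraries stood apart from their group before any comparison. Tumour 1 carried neuroendocrine genes that the other tumours held at low levels. Tumour 3 had 12.7% of its TPM in ribosomal protein genes, against 5.92 to 6.26% in the other 3, and tumour 4 held little of the secretory gene Pbsn. Fat 2 was rich in macrophage genes, and fat 3 held epithelial genes. Each is described with its values below. Rank correlations over the 14834 tested genes were 0.908 to 0.944 among the fat libraries, 0.818 to 0.936 among the tumours and 0.542 to 0.632 between a fat library and a tumour, as a description in which genes share libraries and are not independent.

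Of the 14834 genes whose average over the tissues reached 1 TPM, 1728 were called higher in fat and 1519 higher in tumour, 11.6% and 10.2% of those tested. Without regard to size, all fat libraries lay above all tumours for 3927 genes (26.5%) and below them for 3653 (24.6%). The counts without both libraries numbered 2 were 1845 and 1577, of which 1627 and 1388 were among those of the full set. They rest on the choice of genes in the scaling: when all shared symbols were used, as first planned, genes under 300 bases, many of them small nucleolar RNAs, took 64.1 to 73.5% of the FPKM sum of the fat libraries, the median difference rose from 0.07 to 1.55, and 567 genes were called higher in fat and 5536 higher in tumour. Of these, 417 and 1518 were among those named above. That scaling tested 15015 genes, so list counts given under it stand beside 567 and 5536 of 15015. With that scaling most list medians moved up with the median of all genes, and the counts of the lists most affected are given with them. The difference also fell with length, from a median of 0.71 in the fifth of genes with the shortest exons to -0.64 in the fifth with the longest, and removing that trend gave 1667 and 1366 calls. Genes that share sequence with others can be counted differently in the 2 tables, and 2624 tested genes were marked uncertain for that reason (more than 10% of their 75-base windows stand in another gene, or a multigene family). Among the calls, 433 in fat and 262 in tumour were of this kind. The plot of tissue means shows the calls on either side of the diagonal.

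**Figure D1:**
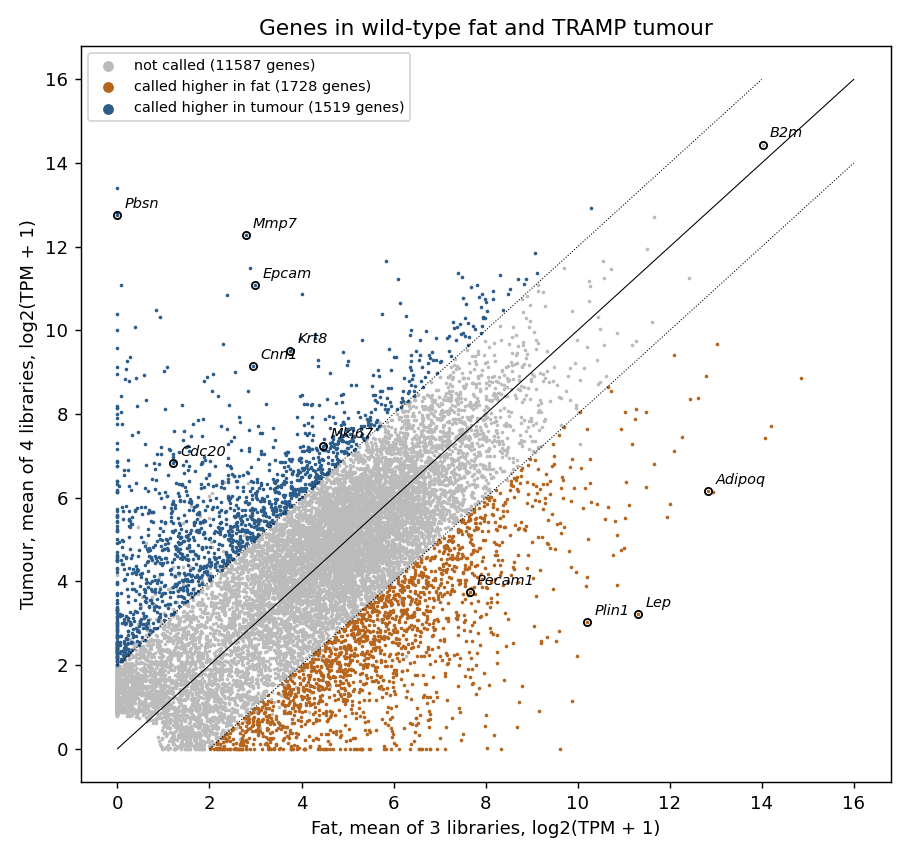
Mean log2(TPM + 1) of each tested gene over the 3 fat libraries (horizontal) and the 4 tumours (vertical), with the 1728 genes called higher in fat in brown and the 1519 called higher in tumour in blue. The solid line marks equal means and the dotted lines a difference of 2. Adipoq, Plin1 and Lep lie far below the diagonal, Pbsn, Mmp7, Epcam and Cdc20 far above it, and B2m close to it at the top of both tissues.

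The most expressed genes of fat included Scd1, Fabp4, Lpl and Cidec, which make, take up and store lipid. Those of tumour included the secreted prostate proteins Pbsn and Tgm4 and the translation genes Eef1a1 and Rplp1, while B2m was high in both. By median TPM the 15 most expressed genes of fat were, in order, Scd1, Car3, Fabp4, B2m, Cfd, Lpl, Adipoq, Gsn, Apoe, Lgals1, Actb, Thrsp, Cav1, Sepp1 and Cidec, and they took 12.5 to 17.7% of the TPM of a fat library. Scd1, the stearoyl-CoA desaturase that makes oleate, led with 42124, 15286 and 40415 TPM, against 323, 699.8, 551 and 386 TPM in tumour. Car3, a carbonic anhydrase abundant in rodent fat, followed with 26595, 10486 and 23665 TPM against 129, 250.1, 155 and 373 TPM. Fabp4, the fatty acid carrier of the adipocyte, held 17513, 20628 and 14011 TPM against 64.9, 134, 394 and 244 TPM. In all of these the tissues were far apart, and fat 2 had the least Scd1 and Car3 and the most Fabp4. Cfd, the protease adipsin, held 10836, 2095 and 10771 TPM in fat, where fat 2 was again the low library, and 146 to 805 TPM in tumour.

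The 15 most expressed genes of tumour were, in order, B2m, Pbsn, 9530002B09Rik, Defb50, Eef1a1, Rplp1, 9530053A07Rik, Mmp7, Tgm4, H2-K1, Krt19, Tmsb4x, Rps15, Itm2b and Rpl4, with 8.41 to 15.9% of the TPM of a tumour. Pbsn (chromosome X, 77837901 to 77853623), the androgen-dependent secreted protein probasin, was listed at 0 in the 3 fat libraries and stood at 18944, 18638, 24949 and 254 TPM in tumour. Defb50, a beta-defensin, was likewise listed at 0 in fat and stood at 8865, 11350.5, 21733 and 6229.9 TPM in tumour. Mmp7, the epithelial matrix protease matrilysin, was listed at 0 in fat 1 and fat 2 and stood at 325 TPM in fat 3, against 3879, 4410.1, 6211 and 5664 TPM in tumour. Tumour 4 was the lowest for Pbsn and Defb50 and not for Mmp7. Tgm4, the prostate transglutaminase, had 6935, 5540.1, 3838 and 469.8 TPM in tumour and 6.03 to 6.71 TPM in fat, and it is one of the genes marked uncertain. B2m, the light chain of MHC class I, stood among the first 4 in both tissues, with 14946, 20636 and 14972 TPM in fat and 8639, 25855, 32436 and 34042 TPM in tumour, and its groups overlapped. Of the 100 most expressed genes of each tissue 18 were shared, 18% of each list, among them B2m, Actb, Eef1a1, Eef2, Ctsd, Psap, Cst3 and Atp5b. Of the 100 in fat 64 were called higher there, and of the 100 in tumour 67.

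Among genes not marked uncertain, the widest gap between the lowest library of one tissue and the highest of the other was held in fat by G6pd2, Tmem182, Atp6v0c, Tshr, Mrap, Npr3, Lpl, Tusc5, Dhdh, Abcd2, Apol6, Plin1, Lep, Palmd and Adipoq. Tshr, the thyrotropin receptor, stood at 292, 237 and 247 TPM in fat and at 0.139 to 1.64 TPM in tumour. Mrap, an accessory protein of the ACTH receptor, stood at 667, 586 and 533 TPM and 3.17 to 6.36 TPM, and Npr3, the receptor that clears natriuretic peptides, at 787, 1280.4 and 1047 TPM and 1.16 to 10.2 TPM. The hormone receptors and accessory proteins of the adipocyte surface were thus among the best separated genes. Tusc5, a partner of the glucose transporter GLUT4 in adipocytes, stood at 596, 599 and 763 TPM in fat and 3.34 to 7.62 TPM in tumour. G6pd2 and Atp6v0c have close copies elsewhere in the genome and their near-absence from the tumour counts may rest on how reads were assigned, which was not tested. By the plain rule, 11 of the 15 widest gaps in fat and 2 of 15 in tumour belonged to genes marked uncertain, histone genes first, and these are not described further.

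In tumour the genes with the widest gaps included Defb50, Cldn8, Tff3, Agr2, Msmb, Tspan1, Krt4, Pbsn, Lrrc26, Hoxb13, Pigr, Foxa1, Cdkn2a and Apof. Cldn8, a claudin of tight junctions, was listed at 0 in fat and stood at 434, 907, 1082 and 785 TPM in tumour. Tff3 and Agr2, a trefoil peptide of mucous secretion and a protein disulfide isomerase needed for mucin folding, were listed at 0 in fat and stood at 324 to 2286 TPM and 313 to 779 TPM in tumour. Pigr, which carries IgA across epithelia, stood at 0 to 2.26 TPM in fat and at 628, 1679, 1186 and 2170.5 TPM in tumour. They also included the transcription factors Hoxb13 and Foxa1, and Cdkn2a, which encodes the CDK inhibitor p16INK4A and the p53 activator p19ARF.

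The adipocyte programme was called higher in fat in most of its members. Of the adipokine genes 8 of 12 tested were called higher in fat and 1 in tumour, with a median difference, tumour minus fat, of -4.48 on the log2(TPM + 1) scale, against 0.07 over all tested genes. Lep, the gene of leptin, stood at 1314, 6228 and 2044 TPM in fat and at 5.5, 22.4, 4.28 and 8.16 TPM in tumour. Fat 2 held the most Lep and, of the 3, the least Adipoq. Retn, the gene of resistin, stood at 2161, 1188 and 3028 TPM in fat and at 16.6 to 40.3 TPM in tumour. Itln1, the gene of omentin, went the other way, listed at 0 in fat and at 4.19, 3.16, 12.7 and 0.163 TPM in tumour, and Nampt, the enzyme that makes nicotinamide mononucleotide, stood at 111 to 128 TPM in fat and 125 to 162 TPM in tumour with overlapping groups. Because whole pieces of tissue were sequenced, fewer cells of a type and less RNA per cell cannot be told apart, here or in any result below.

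Lipid droplet genes were called higher in fat for 10 of 14 tested and in tumour for none, with a median difference of -3.39. Cidec, which fuses droplets into one, stood at 4187, 4141 and 3955 TPM in fat and at 39.5, 70.0, 34.2 and 109.9 TPM in tumour. Plin4 stood at 1992, 1705 and 2538 TPM and 23.6, 41.7, 9.95 and 51.3 TPM. The fat libraries lay close together for both, and tumour 3 was the lowest tumour. Plin3, a perilipin of many cell types, stood at 115 to 135 TPM in fat and 83.7 to 247 TPM in tumour, and Hilpda, a droplet protein induced by hypoxia, at 8.45 to 32.8 TPM and 26 to 28.9 TPM, both with overlapping groups.

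Lipolysis genes were called higher in fat for 10 of 12, with a median of -3.76. Lipe, the hormone-sensitive lipase, stood at 1195, 629 and 1038 TPM in fat and 15.3, 24.9, 9.28 and 38.4 TPM in tumour. Aqp7, the channel through which glycerol leaves the adipocyte, stood at 104, 163 and 157 TPM and 0.644, 2.26, 1.54 and 8.43 TPM. Triglyceride synthesis genes were called for 8 of 14 with a median of -3.66. Dgat2, the enzyme of the last step, stood at 2135, 2119.7 and 2036 TPM in fat and 42.1, 47, 30.7 and 63.9 TPM in tumour, an even level in all 3 fat libraries. Agpat1, an acyltransferase of general glycerolipid synthesis, stood at 64.2 to 74 TPM and 29.3 to 103 TPM, and was not called.

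Fatty acid synthesis was the lipid list in which the fat libraries differed most among themselves. Of its genes 8 of 15 were called higher in fat, with a median of -2.57, and the mean log2(TPM + 1) over the list was 8.55, 7.42 and 8.35 in the 3 fat libraries. Thrsp, a protein that promotes lipogenesis, stood at 7061, 1654 and 5329 TPM in fat and at 28.3, 19.2, 195 and 39.6 TPM in tumour. Acss2, the acetate-activating synthetase of the cytosol, stood at 260.2, 151 and 167 TPM and 19.4, 16.8, 8.4 and 20.5 TPM. Fat 2 was the lowest of the fat libraries for both. Scd2, the second stearoyl-CoA desaturase, stood at 383 to 459 TPM in fat and 389.7 to 883 TPM in tumour and was not called, although Scd1 was the leading gene of fat.

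Uptake and activation of fatty acids gave 9 of 14 genes called higher in fat and none in tumour, with a median of -3.17. Lpl, lipoprotein lipase, stood at 8261, 8189 and 7195 TPM in fat and 39.5, 74.5, 102 and 78.6 TPM in tumour, and Cd36, a fatty acid transporter, at 1577, 2241 and 1222 TPM and 35.8, 81.1, 28.4 and 102 TPM. Lpl was even across the fat libraries, and Cd36 was highest in fat 2. Acsl4, an acyl-CoA synthetase that prefers arachidonate, stood at 35.7 to 64.1 TPM in fat and 113 to 164 TPM in tumour, and Slc27a4, a fatty acid transport protein, at 24.2 to 28.7 TPM and 39.4 to 63.6 TPM. Every tumour lay above every fat library for these last 2 genes, by less than the factor of 4 required for a call.

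Transcription factors of the adipocyte were called higher in fat for 9 of 15 and in tumour for 1, with a median of -2.10. Pparg stood at 939, 444 and 844 TPM in fat and 7.17, 13.4, 12.6 and 24 TPM in tumour, and Cebpa at 678, 359.8 and 578 TPM and 16.1, 18.7, 7.73 and 27.1 TPM. Nr1h3, the oxysterol receptor LXRα, stood at 167, 276 and 211 TPM and 9.14, 8.35, 3.45 and 9.26 TPM, with tumour 3 far below the other tumours. Klf5, a factor of both adipogenesis and epithelium, was the exception, at 4.32, 0 and 5.76 TPM in fat and 21.1, 49.6, 31.6 and 53.2 TPM in tumour. The insulin response list had 7 of 14 genes called higher in fat and a median of -2.28. Lnpep, the aminopeptidase that travels with GLUT4, stood at 216, 169 and 202 TPM and 6.39, 4.91, 0.673 and 1.79 TPM, and Igf1 at 333, 324 and 342 TPM and 10.3, 9.41, 16.8 and 23.4 TPM. Igf1r, the receptor of IGF-1, stood at 13.3 to 41.1 TPM in fat and 39.9 to 68.2 TPM in tumour, with overlapping groups. The size of these lipid and adipocyte differences depended on the scaling. With all shared symbols, the median of the adipocyte factors was -0.23 and that of the insulin response list -0.42, beside 1.55 over all genes. Of the factors 5 of 15 were then called in fat and 4 in tumour, and of the insulin response list 3 of 14 and 1. Lipolysis had 5 of 12 called in fat and 1 in tumour, lipid droplets 6 of 14 and 2, fatty acid synthesis 3 of 15 and 2, and uptake 5 of 14 and 5. Adipokines and triglyceride synthesis had 7 of 12 and 7 of 14 called in fat. Among all 15015 genes tested with that scaling, 567 were called in fat and 5536 in tumour.

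Lists of mitochondrial metabolism showed no common direction. Fatty acid oxidation had 3 of 19 genes called higher in fat and 1 in tumour (median -1.12), the TCA cycle 4 of 23 and 0 (median -0.55), oxidative phosphorylation 2 of 51 and 2 (median 0.35), and branched-chain amino acid breakdown 2 of 17 and 0 (median -1.05). With all shared symbols in the scaling the medians of the first, second and last of these lists turned positive, at 0.85, 1.32 and 0.79, and with the length trend removed that of oxidative phosphorylation turned to -0.19, so no direction is given for them. Among all tested genes 11.6% were called higher in fat and 10.2% in tumour. With all shared symbols in the scaling it was 567 and 5536 of 15015. The calls of oxidative phosphorylation in tumour were 32 of 51 with all shared symbols in the scaling and 6 of 51 without both libraries numbered 2. Those of fatty acid oxidation in fat were 0 of 18 and 5 of 18, and the TCA cycle had 2 of 23 in fat and 5 in tumour with that scaling. Single genes stood out. Acadm, the medium-chain acyl-CoA dehydrogenase, stood at 739.6, 658 and 562 TPM in fat and 62.7, 75.9, 94 and 88 TPM in tumour. Etfa, which takes electrons from that enzyme, went the other way, with 32.5, 46.8 and 22.9 TPM in fat and 432, 352, 508 and 372 TPM in tumour, while its partner Etfb did not separate the tissues (403 to 433 TPM against 301 to 904 TPM). Pcx, pyruvate carboxylase, which feeds lipogenesis with oxaloacetate, stood at 1056, 394 and 727 TPM in fat and 24, 37.4, 12.2 and 46 TPM in tumour. Mpc2, a subunit of the mitochondrial pyruvate carrier, stood at 213 to 238 TPM in fat and 23.9 to 89.3 TPM in tumour.

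Glycolysis had 3 of 18 genes called higher in fat and none in tumour, with a median of -0.01 whose sign changed under several settings, and the called ones included Eno1 and Pgam1, whose reads cannot be assigned with certainty. The calls were 1 of 18 in fat and 8 in tumour with all shared symbols in the scaling, which called 567 and 5536 of all 15015 genes. Cholesterol synthesis had 4 of 21 called higher in fat and none in tumour (median -0.22, and 1.57 with all shared symbols in the scaling, when none was called in fat and 9 in tumour). Insig1, which retains the sterol sensor in the endoplasmic reticulum, stood at 745, 475 and 518 TPM in fat and 77.4, 67, 37.4 and 63.5 TPM in tumour. The serine synthesis and amino acid response list had 1 of 15 called higher in fat and 2 in tumour, beside 11.6% and 10.2% of all tested genes. Slc7a5, the large neutral amino acid transporter, stood at 6.11, 4.07 and 10.9 TPM in fat and 169, 89.7, 15.9 and 58.5 TPM in tumour, and Ddit3, the stress factor CHOP, at 158, 137 and 176 TPM and 44.7, 32.8, 27.4 and 29.7 TPM. The 14 reference genes had 2 called each way, among them Tbp with a difference of -2.20 and Hsp90ab1 with 3.01, so a gene commonly taken as constant could pass the call as well.

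Cell division genes were called higher in tumour nearly throughout. For mitosis this held for 24 of 28 tested genes, with none called in fat, with a median of 3.25, beside 10.2% called among all tested genes. The promoters of its best separated genes are shown because DREAM and the factor NF-Y are known to act on such genes through paired elements. Whether they do so in these tissues was not tested. Sequences are from RefSeq (GRCm38.p6), each 300 bases long from 250 before to 50 after the start, on the strand of the gene. Capitals mark the CHR element TTTGAA, the CCAAT box, and 2 forms of the E2F site (TTTCCCGC and TTTGGCGC), on either strand.
Cdc20, chr4:118437294-118437593, minus strand: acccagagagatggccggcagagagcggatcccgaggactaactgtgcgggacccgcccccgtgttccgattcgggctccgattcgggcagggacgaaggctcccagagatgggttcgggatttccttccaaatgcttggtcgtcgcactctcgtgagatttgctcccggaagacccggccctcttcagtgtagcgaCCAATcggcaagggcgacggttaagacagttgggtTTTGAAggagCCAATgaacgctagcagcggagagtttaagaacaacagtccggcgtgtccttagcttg
Cdk1, chr10:69352863-69353162, minus strand: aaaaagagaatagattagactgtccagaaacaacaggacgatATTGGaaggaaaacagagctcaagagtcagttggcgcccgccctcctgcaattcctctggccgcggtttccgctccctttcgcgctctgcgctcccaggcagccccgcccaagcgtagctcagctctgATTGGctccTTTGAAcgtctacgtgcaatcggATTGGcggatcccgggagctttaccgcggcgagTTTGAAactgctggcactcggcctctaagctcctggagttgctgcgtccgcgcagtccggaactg
Ccnb2, chr9:70421505-70421804, minus strand: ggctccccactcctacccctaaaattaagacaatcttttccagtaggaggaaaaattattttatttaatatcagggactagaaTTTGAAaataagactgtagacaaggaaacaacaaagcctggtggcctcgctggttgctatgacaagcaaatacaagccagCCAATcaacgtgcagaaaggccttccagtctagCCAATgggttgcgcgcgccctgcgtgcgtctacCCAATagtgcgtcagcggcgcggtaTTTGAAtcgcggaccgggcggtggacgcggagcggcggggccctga
For comparison, the fourth is Mcm6, the replication gene with the widest gap among those that held an E2F form, and the last 2 are the adipocyte markers Adipoq and Plin1.
Mcm6, chr1:128359656-128359955, minus strand: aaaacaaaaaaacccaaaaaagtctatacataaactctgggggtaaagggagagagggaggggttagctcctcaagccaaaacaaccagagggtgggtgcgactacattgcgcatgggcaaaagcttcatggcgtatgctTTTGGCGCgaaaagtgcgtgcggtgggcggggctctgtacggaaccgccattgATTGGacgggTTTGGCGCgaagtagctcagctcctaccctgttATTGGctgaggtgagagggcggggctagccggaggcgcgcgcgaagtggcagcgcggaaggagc
Adipoq, chr16:23146286-23146585, plus strand: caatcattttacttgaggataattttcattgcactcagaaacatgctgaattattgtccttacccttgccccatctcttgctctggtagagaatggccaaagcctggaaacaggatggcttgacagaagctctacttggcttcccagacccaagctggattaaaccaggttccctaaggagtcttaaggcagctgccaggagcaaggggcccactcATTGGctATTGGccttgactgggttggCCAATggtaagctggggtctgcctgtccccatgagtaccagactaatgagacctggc
Plin1, chr7:79732727-79733026, minus strand: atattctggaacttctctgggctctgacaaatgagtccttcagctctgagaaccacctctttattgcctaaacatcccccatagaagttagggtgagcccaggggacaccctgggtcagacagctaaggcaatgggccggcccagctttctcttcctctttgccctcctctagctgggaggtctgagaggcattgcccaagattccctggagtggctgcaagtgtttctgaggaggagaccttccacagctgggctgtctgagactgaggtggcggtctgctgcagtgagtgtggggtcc
Cdc20 held 1 CHR element and 2 CCAAT boxes, Cdk1 held 2 and 3, and Ccnb2 held 2 and 3. Mcm6 held 2 E2F sites of the second form and no CHR element, Adipoq 3 CCAAT boxes and no CHR element, and Plin1 none of the 4 motifs.

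Over the whole list, 17 of the 23 mitosis promoters in the table (73.9%) held TTTGAA and 19 of 23 (82.6%) held CCAAT, against 12% and 38.3% of the 11222 promoters of tested genes. Of the 19 promoters of DNA replication genes, 3 held TTTGAA (15.8%) and 14 held CCAAT (73.7%), while 4 and 5 held the first and second E2F form (21.1% and 26.3%) against 1.88% and 0.927% of all. No mitosis promoter held either E2F form in this window. Over all genes called higher in fat 168 of 1194 promoters held TTTGAA (14.1%), and over those called in tumour 176 of 1117 (15.8%). In 50 promoters of the adipokine, droplet, lipolysis, triglyceride and uptake lists 3 held TTTGAA (6%) and 17 CCAAT (34%). The nuclear receptor half-site AGGTCA stood in 8 of these 50 (16%) and in 6 of 13 epithelial promoters (46.2%), against 12.9% of all, and the TATA box TATAAA in 1 of 50 and 1 of 13 against 7.81%. In all, 6 motifs were searched on both strands in 7 sets of genes, and matches of different motifs may share letters at their ends. A match of these letters is a description of the window and not a binding site.

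Cdc20, the activator of the anaphase-promoting complex, stood at 3.84, 0.549 and 0.652 TPM in fat and at 243, 97.8, 68.1 and 101 TPM in tumour. Cdk1, the mitotic kinase, stood at 2.67, 3.76 and 0.194 TPM and 127, 58.8, 75.4 and 56.5 TPM. Ccnb2, its cyclin partner, stood at 3.02, 10.4 and 0 TPM and 149, 98.4, 104 and 118 TPM. All tumours lay far above all fat libraries for these genes, and tumour 1 was the highest. For every one of the 28 mitosis genes tumour 1 held the highest level of the 7 libraries, and for 20 of them tumour 3 held the lowest of the 4 tumours. Tumour 3 was also the lowest tumour for 9 of 14 reference genes and 19 of 21 cholesterol synthesis genes. It was so for 6 of 23 epithelial and 10 of 51 oxidative phosphorylation genes. Shares over all tested genes were not counted, for these or for the like counts of other lists. Without tumour 1 the median of the mitosis list was 2.84. Aurka, the spindle kinase, stood at 0.606 to 3.86 TPM in fat and 30.0 to 83.8 TPM in tumour.

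DNA replication genes were called higher in tumour for 20 of 23 tested, with a median of 2.97, and in fat for none. Rfc4, a subunit of the clamp loader, stood at 1.00, 0.432 and 1.53 TPM in fat and 179, 115, 187 and 123 TPM in tumour. Lig1, the ligase that joins Okazaki fragments, stood at 7.1, 8.41 and 3.92 TPM and 245, 176, 174 and 194 TPM. Mcm6 and Mcm4, subunits of the replicative helicase, stood at 11.7 to 18.7 TPM and 12.8 to 20.7 TPM in fat and at 167 to 370.1 TPM and 150.0 to 220.2 TPM in tumour. Tumour 1 was the highest library for 17 of the 23 genes, and tumour 3 the lowest tumour for 18.

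Nucleotide and folate synthesis had 9 of 25 genes called higher in tumour and none in fat, with a median of 1.30. Dut, which keeps uracil out of DNA, stood at 12.9, 6.12 and 5.28 TPM in fat and 277, 142, 204 and 147 TPM in tumour. Rrm2, the regulated subunit of ribonucleotide reductase, stood at 2.05, 5.93 and 4.43 TPM and 259, 67.7, 45.2 and 61.2 TPM, and Shmt1, which loads 1-carbon units onto folate, at 7.06, 2.1 and 4.98 TPM and 83.6, 94.1, 89.7 and 105 TPM. The purine enzymes Atic and Gmps were not called, with 54.8 to 69.4 TPM and 47.9 to 56.6 TPM in fat and 13.8 to 49.2 TPM and 14 to 49.8 TPM in tumour. The named genes were chosen for the widest gaps or for going against the list, so they do not show how the list divides by pathway. Ribosome biogenesis had 4 of 18 genes called in tumour and none in fat (median 0.98), with Ncl, the gene of nucleolin, at 59.1 to 63.9 TPM in fat and 259 to 382 TPM in tumour. Scaling over all shared symbols gave 20 of 25 nucleotide genes and 13 of 18 ribosome biogenesis genes called in tumour, beside 5536 of all 15015 genes. Leaving out tumour 3 gave 2 of 18 ribosome biogenesis genes.

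In the RB, E2F and p53 circuit 9 of 25 genes were called higher in tumour and 2 in fat, with a median of 1.14. Among all tested genes 10.2% were called higher in tumour and 11.6% in fat. With all shared symbols in the scaling 16 of 25 were called in tumour, beside 5536 of all 15015 genes. Cdkn2a was listed at 0 in fat 1 and fat 3, stood at 0.67 TPM in fat 2, and reached 300.4, 366, 793 and 437 TPM in tumour, with tumour 3 the highest. E2f8, a repressive E2F that is itself an E2F target, stood at 1.89, 2.37 and 0.887 TPM and 41, 20.6, 13.5 and 24.6 TPM. Cdk6 and Ccnd2, a kinase and a cyclin that phosphorylate RB, went the other way. Cdk6 stood at 21.2, 36.4 and 27.8 TPM in fat and 0.309, 0.41, 0.107 and 0.186 TPM in tumour, and Ccnd2 at 207, 231 and 178 TPM and 19.4, 9.47, 4.37 and 13 TPM. Every tumour thus held less of this kinase and this cyclin than any fat library, while Cdkn2c, an inhibitor of the same kinases, stood at 334 to 671 TPM in fat and 169 to 263 TPM in tumour and was not called. Of 19 tested chromatin and oncofetal genes 8 were called higher in tumour and 3 in fat (median 1.83), beside the same shares of all tested genes. Ezh2, the methyltransferase of the polycomb mark, stood at 4.36, 7.98 and 5.05 TPM in fat and 97.1, 56.9, 92.3 and 64.9 TPM in tumour. Igf2bp2, an RNA-binding protein of fetal tissues and of fat, stood at 3.91 to 11.4 TPM in fat and 0.113 to 0.585 TPM in tumour.

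Epithelial genes were called higher in tumour for 20 of 23, with a median of 5.76, or 5.05 without both libraries numbered 2, and in fat for none. Cldn4 stood at 0.944, 0.27 and 0.321 TPM in fat and 302, 811, 353 and 647 TPM in tumour. Grhl2, a transcription factor of epithelia, stood at 0, 0.366 and 0.761 TPM and 37.4, 85.8, 30.8 and 77.3 TPM. Tumour 1 was the lowest tumour for Cldn4, and it was so for 17 of the 23 genes. The summed level of the list was 188, 61.8 and 661 TPM in the 3 fat libraries and 6566, 14800.3, 14811 and 15912 TPM in the 4 tumours. Fat 3 thus held more epithelial RNA than fat 1 and fat 2. In that library Epcam stood at 110.2 TPM and Mmp7 at 325 TPM, whereas Pbsn, Msmb and Hoxb13 were listed at 0.

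Of 19 tested luminal genes of the prostate 12 were called higher in tumour and 2 in fat, with a median of 6.10, or 5.41 without both libraries numbered 2. Msmb, a secreted microseminoprotein, was listed at 0 in fat and stood at 3149, 952, 3593 and 307 TPM in tumour. Hoxb13 was listed at 0 in fat and stood at 289, 299.6, 403 and 203 TPM in tumour, and Foxa1 at 0, 0.437 and 0 TPM and 273, 625, 464 and 544 TPM. These transcription factors differed less among the tumours than the secreted products did. Steap4, a metalloreductase of fat and prostate, and Folh1, the prostate-specific membrane antigen in humans, were called higher in fat, at 1006 to 1338 TPM and 15 to 42.9 TPM there and 5.19 to 21.6 TPM and 0.104 to 6.32 TPM in tumour. Basal genes were called in tumour for 4 of 11 and in fat for 1 (median 1.35), beside 10.2% and 11.6% of all tested genes. Krt5, the basal keratin, stood at 0 to 0.26 TPM in fat and 13.2 to 60.6 TPM in tumour, and Dst, the hemidesmosome linker dystonin, which has forms in many tissues, at 516 to 613 TPM in fat and 9.41 to 37 TPM in tumour.

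**Figure D2:**
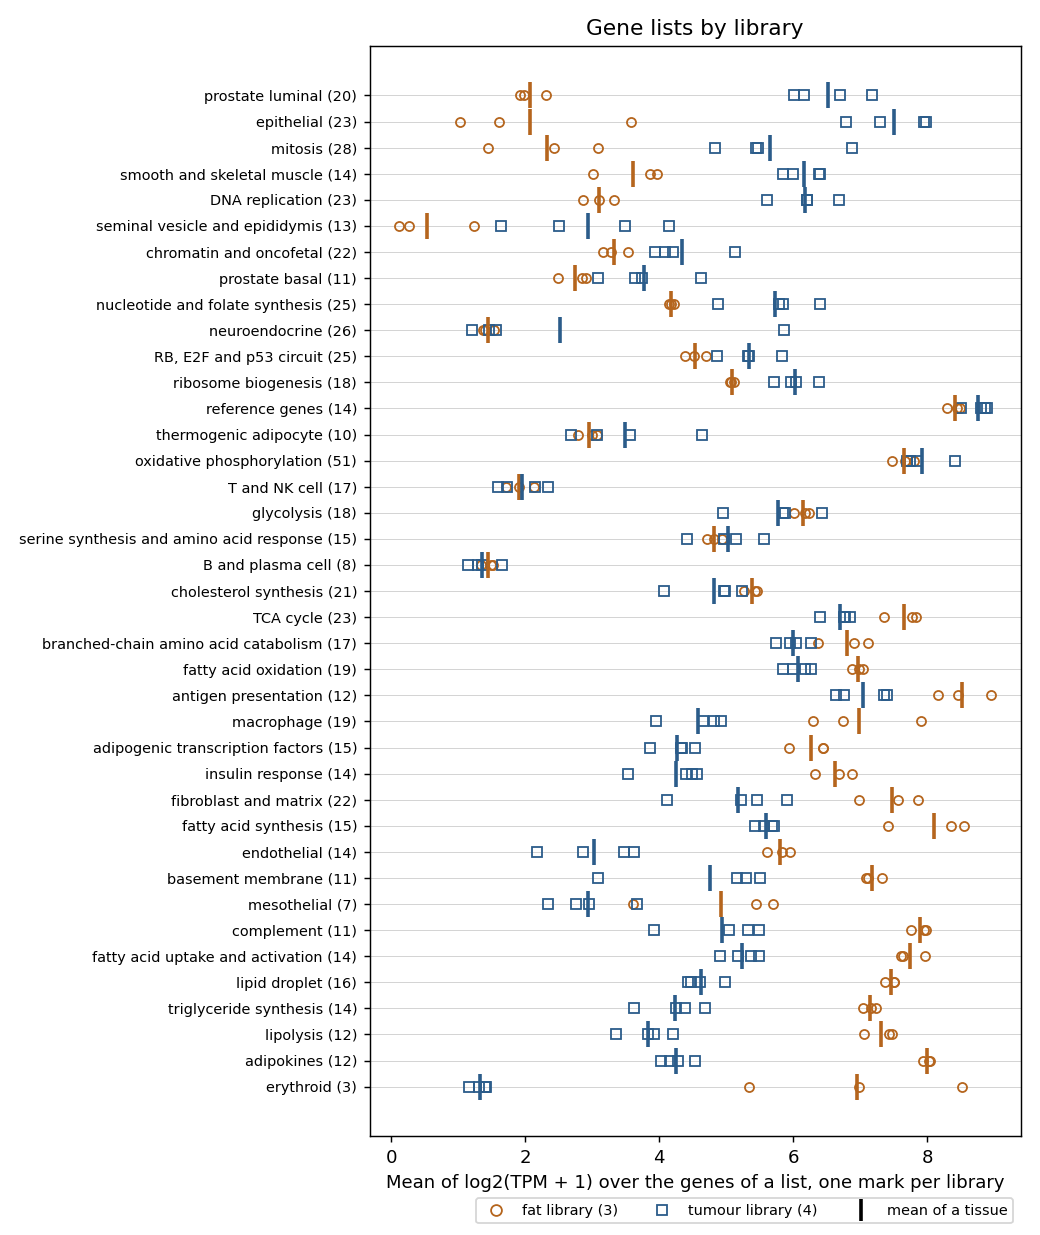
Mean of log2(TPM + 1) over the measured genes of each of the 39 lists (number of genes in brackets), with a circle for each fat library, a square for each tumour and a bar for each tissue's mean. Lists run from those lower in tumour at the bottom to those higher in tumour at the top. Lipid and adipokine lists and endothelial genes keep the tissues apart on 1 side, epithelial and mitosis lists on the other, and the neuroendocrine mean of tumour rests on 1 square.

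Tumour 1 differed from the other tumours in neuroendocrine genes. The mean log2(TPM + 1) over the 26 genes of that list was 5.86 in tumour 1 and 1.2 to 1.56 in the other 3, against 1.37 to 1.54 in fat. All 22 tested genes of the list were highest in tumour 1 among the 7 libraries. Tumour 1 alone could carry a gene past the filter of 1 TPM, so for some members this was set by the filter. Insm1, a transcription factor of neuroendocrine cells, stood at 202, 0.688, 0.108 and 0 TPM in the tumours, and Chgb, the secretory granule protein chromogranin B, at 431, 0.419, 0.366 and 1.09 TPM. Ncam1, a neural adhesion molecule, stood at 189, 19.2, 14.7 and 27 TPM, which is high in tumour 1 and low but present in the others. The list had 5 of 22 genes called in tumour, beside 10.2% of all tested genes, and a median of 1.23. Without tumour 1, 13 of its genes were still tested, 2 were called in tumour and 2 in fat, and the median was -0.13. Foxa2, a factor of neuroendocrine prostate tumours, stood at 0 to 0.577 TPM over the 4 tumours. Tumour 1 also had the lowest B2m, 8639 TPM against 25855 to 34042 TPM in the others, and the highest Mki67, while Pbsn stayed at 18944 TPM.

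Genes of the seminal vesicle and epididymis, organs that lie beside the prostate and the epididymal fat, also varied by library. Svs2, a protein of seminal vesicle fluid, was listed at 0 in fat and stood at 5692, 13.3, 17.1 and 15.9 TPM in the tumours. Crisp1, an epididymal secretory protein, stood at 0, 0.358 and 0 TPM in fat and 327, 1.62, 15.5 and 7591 TPM in the tumours. Tumour 1 was thus high in Svs2 and tumour 4 in Crisp1. The summed level of the 13 genes was 9549.6, 79.5, 514 and 8065 TPM in the tumours and 10.1, 50.7 and 1.61 TPM in fat. Tumour 4 was also the library with little Pbsn and Msmb, and the part of neighbouring tissue in its values was not tested. In fat 2 the epididymal lipocalins Lcn5 and Lcn8 stood at 26.7 and 8.69 TPM and were listed at 0 in fat 1 and fat 3.

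Of 10 thermogenic genes none was called higher in fat and 1 in tumour, beside 11.6% and 10.2% of all tested genes. Ucp1, the uncoupling protein of brown adipocytes, stood at 0, 3.92 and 0.358 TPM in fat and 3.62, 4.01, 109 and 34 TPM in tumour. Cox7a1, a cytochrome oxidase subunit of brown fat and muscle, stood at 12.3, 2.64 and 6.27 TPM and 17.5, 21.2, 159.6 and 28.2 TPM. Tumour 3 was the highest library for both, and the list's score was 2.95 ± 0.15 (SD, n = 3) in fat and 3.49 ± 0.84 (SD, n = 4) in tumour, with overlapping groups. Without tumour 3 the list median fell from 0.40 to -0.06. Adipocyte genes did not share 1 order over the tumours. Fabp4, Thrsp and Lpl were highest in tumour 3, at 394, 195 and 102 TPM. Plin1 and Cidec were lowest there, at 2.88 and 34.2 TPM, and Adipoq, at 56 TPM, lay between the other tumours.

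**Figure D3:**
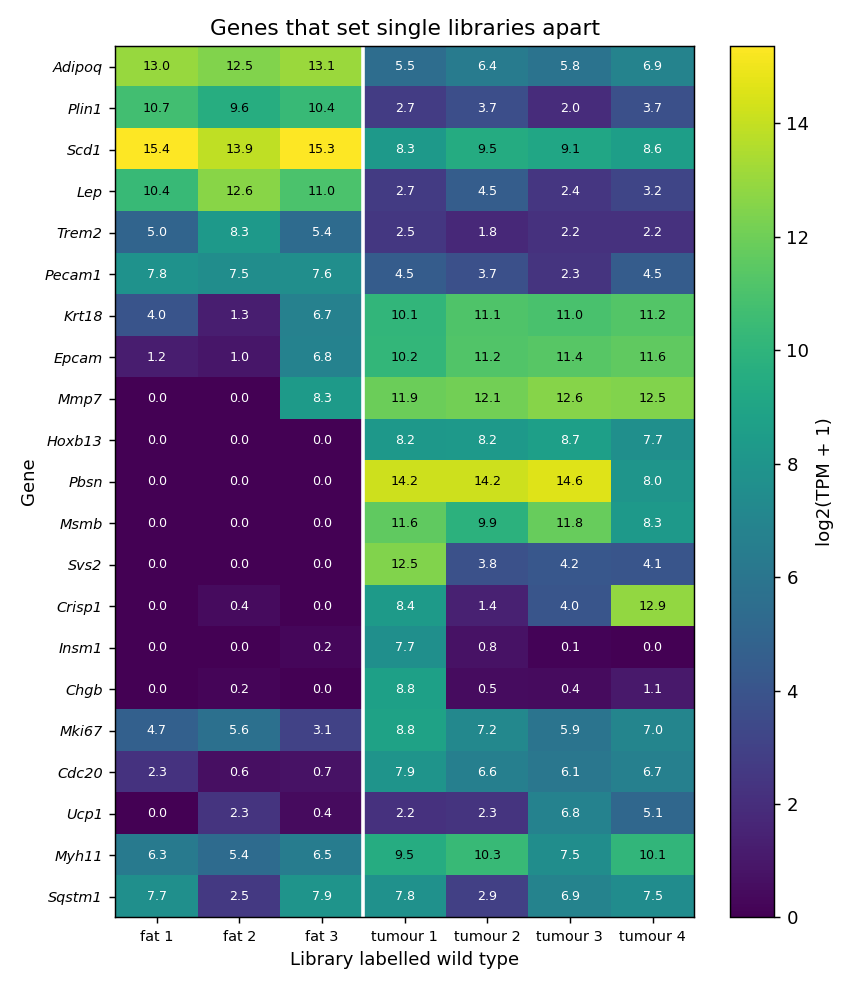
Level of 21 genes in each of the 7 libraries as log2(TPM + 1), by colour and number, with fat on the left of the white line and tumour on the right. Insm1 and Chgb stand out in tumour 1, the low Pbsn and high Crisp1 in tumour 4, Ucp1 in tumour 3, Trem2 and Lep in fat 2, Mmp7 and Epcam in fat 3, and the low Sqstm1 in both libraries numbered 2.

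Stromal and vascular genes were called higher in fat. Of the endothelial genes 12 of 14 were called higher in fat and none in tumour, with a median of -2.73. Pecam1 stood at 228, 186 and 192 TPM in fat and 21.3, 12.2, 3.94 and 21.2 TPM in tumour, Flt1, a VEGF receptor, at 33.3, 34 and 34.2 TPM and 3.83, 1.68, 0.903 and 2.39 TPM, and Tek, the angiopoietin receptor, at 58.6 to 81.1 TPM and 2.66 to 7.79 TPM. Tumour 3 was the lowest tumour for 11 of the 14 genes, and for 9 of the 14 reference genes. The summed level of the endothelial list was 903 to 1184 TPM in fat and 78.4 to 193 TPM in tumour, and no member was at 0 in any library. Fibroblast and matrix genes were called for 14 of 22 in fat and none in tumour (median -2.50). Dpt, the matrix protein dermatopontin, stood at 882, 1036 and 851 TPM in fat and 61.7, 91.3, 37.3 and 60.0 TPM in tumour, and Dcn, the proteoglycan decorin, at 3243, 2356 and 3093 TPM and 159, 258, 428 and 268 TPM. Thy1 stood at 15.1 to 40.6 TPM in fat and 34.3 to 82.1 TPM in tumour, with overlapping groups. These counts rest on the scaling. With all shared symbols 1 of 14 endothelial and 3 of 22 fibroblast genes were called in fat, with medians of -0.94 and -0.66. Of all 15015 genes 567 were then called in fat. Relative to the median of all genes the lists stood at -2.49 and -2.21 with that scaling and at -2.80 and -2.57 with protein-coding genes.

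Basement membrane genes were called higher in fat for 8 of 11 and in tumour for 1, with a median of -2.79. The count was 3 of 11 in fat with all shared symbols in the scaling. The laminin chains divided. Lama4, the chain of adipocyte and vessel membranes, stood at 294, 243 and 252 TPM in fat and 15.3, 16.4, 2.51 and 14.5 TPM in tumour. Lama5, the chain of epithelial membranes, stood at 6.65, 5.09 and 10.2 TPM and 58.7, 117, 24.4 and 116 TPM. Nid1, which links laminin to collagen IV, followed Lama4, with 769.7, 563 and 608 TPM and 35.6, 43.4, 8.33 and 54.9 TPM. All 11 genes of the list were lowest in tumour 3 among the tumours, as were 9 of the 14 reference genes. Muscle genes were called higher in tumour for 9 of 12 (median 3.05, or 2.51 without both libraries numbered 2). Cnn1, a calponin of smooth muscle, stood at 8.79, 1.7 and 16.5 TPM in fat and 460.2, 738, 454 and 649.7 TPM in tumour, and Acta2 at 203, 163 and 259 TPM and 1672, 2952, 1587 and 2535 TPM. The prostate has a coat of smooth muscle, and the share of muscle in the tumour pieces was not tested.

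Macrophage genes were called higher in fat for 9 of 19 and in tumour for none, with a median of -1.97. The counts of this paragraph stand beside 11.6% called higher in fat and 10.2% in tumour among all tested genes. With all shared symbols in the scaling these were 567 and 5536 of 15015. Mrc1 and Cd163, scavenger receptors of resident macrophages, stood at 197 to 408 TPM and 68 to 93.1 TPM in fat and at 7.68 to 19.4 TPM and 0.734 to 6.48 TPM in tumour. Trem2, a receptor of lipid-laden macrophages, stood at 30.2, 314 and 39.9 TPM in fat and 2.39 to 4.51 TPM in tumour. Fat 2 was the highest of the 7 libraries for 15 of the 19 genes, and the summed level of the list was 3139, 9638 and 2215 TPM in fat and 775 to 1033 TPM in tumour. Without both libraries numbered 2 the list median was -1.67 and 9 of 19 were called. Under the scaling over all shared symbols the median was -0.12, or -1.68 relative to that of all genes, and 4 of 19 were called in fat and 1 in tumour. Complement genes were called for 9 of 11 in fat and none in tumour (median -3.03), or for 1 of 11 with all shared symbols in the scaling, with C6, a part of the membrane attack complex, at 55.2, 74.8 and 64.3 TPM and 1.6, 3.14, 0.188 and 1.99 TPM. Of the antigen presentation genes 5 of 12 were called higher in fat and none in tumour, with a median of -1.60. Of the 12, 7 are marked uncertain, and without them 1 of 5 was called and the median was -0.06. None was called in fat and 2 in tumour with all shared symbols in the scaling. Ciita, the master regulator of class II genes, stood at 10.3, 33.2 and 25.8 TPM in fat and 2.05, 2.03, 0.333 and 1.82 TPM in tumour, whereas the peptide transporter gene Tap2 stood at 70.8 to 78 TPM and 43.1 to 107 TPM with overlapping groups. T and NK cell genes had 2 of 16 called higher in fat and 1 in tumour (median 0.16), near the shares over all tested genes. B and plasma cell genes had none of 7 called either way. Ccl5, a chemokine of T cells, stood at 6.15, 2.64 and 0 TPM in fat and 20.9, 28.9, 21.4 and 33 TPM in tumour. Of mesothelial genes 4 of 7 were called higher in fat (2 of 7 with all shared symbols in the scaling), among them Upk3b at 189, 33.9 and 152 TPM against 0.379 to 3.48 TPM, and fat 2 held the least. Upk1b, a uroplakin also made by urothelium, was called in tumour, at 6.93 to 34.6 TPM in fat and 521 to 1473 TPM in tumour.

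Some related genes with like functions exchanged ranks between the tissues. Ratios of 2 genes within a library are not moved by the scaling of the library, apart from the added 1 TPM. They still rest on the length of each gene and on how each table was counted. Ratios under another gene length or without the length trend are not given, so the side of a ratio near 0 is uncertain. The 30 pairs measured were chosen with earlier results known, and several join a gene of fat to a gene of tumour, so their counts are a description. The log2 ratio kept all fat libraries apart from all tumours in 22, and in 12 the first gene was the higher one in every library of one tissue and the lower one in every library of the other. Slc2a4 against Slc2a1, the insulin-responsive and the general glucose transporter, had a log2 ratio of 2.61 to 3.28 in fat and -1.17 to -0.54 in tumour. Akt2 against Akt1 had 1.25 to 1.47 and -2.58 to -2.21, with little spread in either tissue. Acsl1 against Acsl4 had 4.27 to 4.83 and -1.27 to -0.38. Other metabolic and insulin pairs did not exchange ranks. Acacb against Acaca had -2.79 to -2.31 in fat and -1.29 to 0.52 in tumour, and Irs2 against Irs1 had -0.72 to 0.26 and -3.08 to -1.35. The ratios of Rxrg to Rxra, Cpt1b to Cpt1a and Bcat2 to Bcat1 overlapped between the tissues.

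Some cell cycle and chromatin pairs exchanged ranks as well. Ezh1 against Ezh2, the methyltransferases of resting and of dividing cells, had a log2 ratio of 2.88 to 3.82 in fat and -2.47 to -0.33 in tumour. Top2b against Top2a had 2.74 to 5.23 and -2.12 to -0.62, and Rbl2 against Rbl1, the RB relatives p130 and p107, had 1.26 to 2.44 and -1.26 to -0.23. Ccnd2 against Ccnd1 had 1.16 to 2.10 and -2.04 to -1.08. In all of these the member tied to proliferating cells, or Ccnd1, took the lead in tumour. A lead in a ratio is not a rise of that gene. Ccnd1 stood at 14.7 to 42 TPM in tumour and was not higher there than in fat, while Ccnd2 was called higher in fat. Top2b, Rbl2, Ccnd1 and Acaca, like Krt8 above, are among the genes marked uncertain. Other nuclear pairs did not exchange. Dnmt3a stayed above Dnmt3b in every library, with 3.03 to 4.34 in fat and 1.62 to 2.79 in tumour, Lmna against Lmnb1 had 2.53 to 3.64 and -1.58 to 0.42, and Cbx7 against Cbx2 overlapped. Gpd1 against Gpd2, the cytosolic and the mitochondrial glycerol-3-phosphate dehydrogenase, had 3.61 to 5.88 and -0.60 to -0.06, and Plin1 against Plin2 0.29 to 2.44 and -3.01 to -1.26. The pairs that overlapped included Fabp4 against Fabp5, with 4.32 to 6.29 in fat and -0.24 to 5.68 in tumour, where tumour 1 alone held more Fabp5 than Fabp4, and Hk2 against Hk1, with 2.06 to 2.95 and -0.34 to 3.13.

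**Figure D4:**
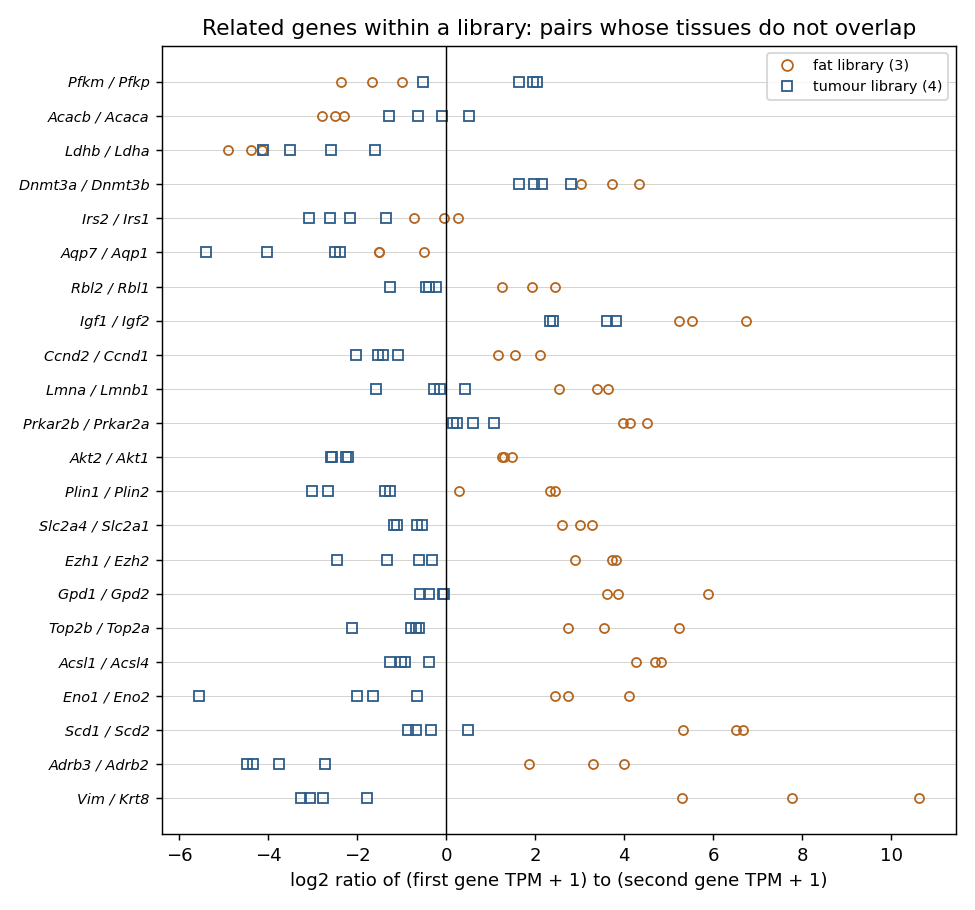
Log2 ratio of 2 related genes within each library for the 22 pairs whose tissues do not overlap, with circles for the 3 fat libraries and squares for the 4 tumours. The vertical line marks equal levels, and in 12 pairs the circles and squares lie wholly on opposite sides of it. Eno1 reads cannot be assigned with certainty.

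The libraries of the other arm, labelled as lacking p62 in adipocytes, gave a second set of 3 fat and 3 tumour libraries that the calls above had not used. The same rule called 1425 genes higher in fat and 1284 higher in tumour there, 10.1% and 9.14% of 14046 tested. Of the genes called higher in fat in the wild-type libraries 1115 were called so again, 64.5% of that list and 78.3% of the other, and of those called higher in tumour 923, which is 60.8% and 71.9%. 1 gene was called in opposite directions. In the second set the difference was above 0 for 11 of the 1728 genes called higher in fat. It was not above 0 for 98 of the 1519 called higher in tumour. The 2 sets share the deposited tables and their processing.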

How the data were processed

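RNA was selected by poly(A), made into directional libraries and read as single ends of 75 bases, per the labels' protocols. In the fat values genes under 300 bases, many of them small nucleolar RNAs, took 64.1 to 73.5% of the FPKM sum. Whether the libraries of both tissues were made and counted alike was not tested. The authors deposited one table per tissue, with no unit in its header: by their values, FPKM per gene for fat, with near-equal medians in every library, and read counts per gene for tumour. STAR, DESeq2 and mm10 (GRCm38) are named in the submitters' processing notes, without roles; how reads were counted is not given in the sources used here. Each column named 1 library.

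Of 22615 shared symbols 22313 matched GENCODE M21, 616 of them through a RefSeq synonym. Tumour counts were divided by exon-union length, and all libraries were scaled to 1000000 over 19826 protein-coding genes of at least 300 bases, with Python 3.11.15, numpy 2.4.6 and pandas 2.3.3. The plan had scaled over all shared symbols. The restriction, planned as an alternative, was made the main scaling after the files showed the share of genes under 300 bases, and both are reported. The mark for uncertain genes, the naming of widest gaps without them and the removal of the length trend were also added after seeing the data, and 7 definitions of gene length had been looked at. Log2 FPKM of fat minus log2 counts fell by 0.642 per doubling of exon length over 12758 genes, between no fall, for values not divided by length, and a fall of 1, for values fully divided by it. The unit of the fat table is thus inferred, and the scaled difference still fell by 0.374.

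Tested genes had an average of the tissue means of at least 1 TPM, and a pseudocount of 1 TPM was added before logarithms, which understates changes of low genes. Named genes are the 15 most expressed of each tissue, the 15 widest gaps each way, up to 4 widest gaps and 2 contrary genes of each of 39 lists, the related pairs, Sqstm1 and 4 markers. Epcam, Eef2, Ctsd, Psap, Cst3, Insm1, Chgb, Foxa2 and Crisp1 were chosen after their values were seen. Some genes that the rule names are not reported here. Members and lists were chosen with earlier results of these data known. On simulated counts of 19868 genes the call rule found 95.5% of 200 genes changed 8-fold. It found 37.0% of those changed 4-fold and 0% of those changed 2-fold, and called 0% of unchanged genes. These values hold for counts only, and for changed genes drawn from those averaging at least 200 counts. Every simulated gene had the same fixed dispersion between libraries, whereas real libraries can differ more and tested genes reach down to 1 TPM. With the factor of 4 in the rule, unchanged and 2-fold genes could hardly be called in such counts. The percentages therefore do not describe the comparison of fat with tumour. How often the rule calls unchanged genes between FPKM of unknown depth and counts was not tested. Counting error alone limits low tumour values, and fat depth is not known. Alternatives covered the pseudocount, filters, scaling, gene length, the size of difference, each library left out, both libraries numbered 2 left out and a replicate block.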

Additional observations from a re-analysis of the deposited data

Results flagged for a closer look

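Among the 4 tumours, 22 of 170 named genes and 3 of 39 lists had 1 library farther from the rest than Dixon's 95% limit for 4 values, computed on log2(TPM + 1). Chance alone would mark about 1 in 20 sets of values, but the number of genes is not to be read against that, because the genes share libraries and some, such as Insm1 and Chgb, were named after their values were seen. The share flagged over all tested genes was not computed, so the flags cannot be called particular to the named genes. The 3 fat libraries are too few for that rule.

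Tumour 3 was the far library for most of them. It was low for Nr1h3 (3.45 TPM), Pgam1 (4.3 TPM), Mcm6 (167 TPM), Gmps (14 TPM), Lama4 (2.51 TPM), Mrc1 (7.68 TPM), Ciita (0.333 TPM) and Eef2 (793 TPM). The signalling genes Akt1, Akt2 and Ccnd1 were low there as well, with 49.8, 7.5 and 14.7 TPM. It was high for Tmsb4x (6466 TPM), Rps15 (6315 TPM), Hsp90ab1 (2824 TPM) and Igf1r (68.2 TPM). Its scores over the basement membrane and insulin response lists were 3.08 and 3.53, below the other tumours.

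Tumour 1 was the far library for the neuroendocrine list, with a score of 5.86, and for Insm1 (202 TPM), Chgb (431 TPM), Svs2 (5692 TPM) and Ncl (382 TPM), all high, and for H2-K1 (1336 TPM), which was low. Tumour 4 was far below the others for Pbsn (254 TPM) and above them for Lcn5 (11.6 TPM).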

How the results depend on the processing

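The counts of 1728 genes higher in fat and 1519 higher in tumour stayed within 1.5 times of those values under every alternative run except 2. With all shared symbols in the scaling they were 567 and 5536, and with a difference of 1 instead of 2 on the log2 scale 3354 and 3099. In these the share of calls that were higher in tumour was 90.7% and 48.0%, against 46.8%. Leaving out 1 library at a time gave 1503 to 1966 and 1478 to 1823, and without tumour 3 the median difference of all genes rose to 0.29. A replicate block, with differences taken within the numbers 1 to 3, gave 1866 and 1540. Deviations of same-numbered libraries from their group means correlated at 0.049, 0.024 and -0.028, so the numbers are not taken to pair the libraries. No called gene that the text names changed direction under an alternative run. List medians that changed sign with all shared symbols in the scaling were those of fatty acid oxidation, the TCA cycle, branched-chain amino acid breakdown, glycolysis (1.86), cholesterol synthesis, the serine and amino acid response list (1.68), B and plasma cells (1.17) and antigen presentation (0.27). With the length trend removed those of thermogenic genes (-0.31), oxidative phosphorylation and T and NK cells (-0.75) did so. The cause of the length trend was not tested.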
